A study of Mus musculus with 2 samples.

Results

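S100a4, S100a6, S100a10, S100a11, Anxa1, Anxa2, Ahnak, Lgals1 and Vim, 9 of the 31053 genes counted, were described across the lymphocyte and myeloid cells of mouse brain tumours and between metformin and control water. The 9 genes were chosen after S100a6 and Ahnak had been seen at higher levels in B cells of the metformin library. The contrast between the libraries in B cells is therefore a description of values that led to the choice. The samples were 2 single-cell libraries, 1 of mice that drank water with metformin and 1 of mice that drank control water without it. Metformin is a biguanide drug known to inhibit mitochondrial complex I. All mice were C57BL/6 and had received GL261 cells, a mouse glioma line, by injection into the brain, and the tumour region was dissected on day 20. Sorting kept cells high in CD45, the phosphatase on the surface of all leukocytes, and their transcripts were counted as unique molecular identifiers (UMIs) at 3' ends. The labels do not state age, sex, metformin dose, sort gates or how many mice a library holds. With 1 library per condition no difference has a replicate check, and differences between animals, sorts and library preparations cannot be told apart from the drinking water.

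S100 proteins are small calcium-binding proteins with paired EF hands that act mostly as dimers inside cells, where they change the activity of partner proteins. S100A4 binds non-muscle myosin and S100A6 binds several annexins and cytoskeletal proteins. S100A10 differs from the family in that it no longer binds calcium, and with annexin A2 it forms a heterotetramer at the plasma membrane, while S100A11 pairs with annexin A1. Annexins bind acidic phospholipids when calcium rises and take part in membrane repair and trafficking. AHNAK is a very large scaffold protein that binds the annexin A2 complex and has been tied to calcium entry in T cells. Galectin-1, the product of Lgals1, binds beta-galactosides on surface glycoproteins, and vimentin is the intermediate filament of leukocytes and mesenchymal cells. In lymphocytes this group of transcripts is best known for low levels in naive cells and high levels in effector and memory cells.

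S100a4, S100a6, S100a10 and S100a11 all lie on mouse chromosome 3 in the genome build mm10, on the plus strand. S100a4 (chr3:90603771-90606045) and S100a6 (chr3:90612882-90624181) are 6837 bases apart, with S100a5 between them. S100a11 (chr3:93520488-93526287) and S100a10 (chr3:93555080-93564643) are direct neighbours 28793 bases apart. Anxa1 (chr19:20373428-20390944, minus strand) and Ahnak (chr19:8989284-9076914) share chromosome 19. Anxa2 is at chr9:69453620-69491795, Lgals1 at chr15:78926725-78930465 and Vim at chr2:13573927-13582826. All 9 are annotated as protein-coding. S100a4 overlaps the same-strand gene model Gm42674, Anxa1 overlaps 1500015L24Rik on the other strand and Anxa2 overlaps Gm16144 on the other strand and Mir3109. Few UMIs were assigned to these genes: Gm42674 and 1500015L24Rik had 0 in both libraries, and Gm16144 had 0 with metformin and 2 with control water, beside 9274 and 7833 of Anxa2. Mir3109 was not examined. These counts do not show whether S100a4 lost UMIs through its same-strand overlap.

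The 250 bases before the start are shown for 4 genes, S100a6 and Ahnak because the choice of genes rests on them, S100a4 as the neighbour of S100a6 and S100a11 as the S100 gene whose window held the most motif matches. The sequences are from RefSeq in the build GRCm38.p6, 5' to 3', for chr3:90603520-90603769, chr3:90612644-90612893, chr3:93520246-93520495 and chr19:8989034-8989283, all on the plus strand. Capitals mark matches on either strand to TATAAA (the TATA box), TGANTCA (the AP-1 motif) and GGGCGG (the GC box).
S100a4: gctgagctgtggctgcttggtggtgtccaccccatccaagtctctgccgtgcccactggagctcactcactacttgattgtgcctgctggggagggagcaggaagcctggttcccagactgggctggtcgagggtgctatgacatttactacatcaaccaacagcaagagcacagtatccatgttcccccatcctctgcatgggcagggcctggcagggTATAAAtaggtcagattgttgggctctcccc
S100a6: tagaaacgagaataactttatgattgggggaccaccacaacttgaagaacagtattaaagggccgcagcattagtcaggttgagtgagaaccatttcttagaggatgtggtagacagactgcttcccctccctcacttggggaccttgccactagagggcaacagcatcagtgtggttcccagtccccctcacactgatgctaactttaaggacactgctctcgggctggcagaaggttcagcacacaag
S100a11: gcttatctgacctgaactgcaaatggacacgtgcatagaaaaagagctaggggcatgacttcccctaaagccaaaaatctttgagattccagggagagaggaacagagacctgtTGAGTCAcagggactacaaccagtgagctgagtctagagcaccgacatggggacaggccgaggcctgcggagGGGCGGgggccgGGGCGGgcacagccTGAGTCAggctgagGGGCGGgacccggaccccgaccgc
Ahnak: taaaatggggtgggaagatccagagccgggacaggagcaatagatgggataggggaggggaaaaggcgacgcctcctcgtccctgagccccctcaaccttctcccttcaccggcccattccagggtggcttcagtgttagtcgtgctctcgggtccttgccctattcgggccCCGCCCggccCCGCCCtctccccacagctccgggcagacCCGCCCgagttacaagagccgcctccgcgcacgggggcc
The S100a4 window held 1 TATA box, 31 to 26 bases before the start. The S100a6 window held none of the 3 motifs. The S100a11 window held 2 AP-1 motifs and 3 GC boxes, and the Ahnak window held 3 GC boxes, all on the minus strand. Of all 32851 promoter windows of this length, 12.4% held TATAAA, 6.75% held TGANTCA and 32.7% held GGGCGG. Windows were matched for 7 of the 9 genes, and TATA boxes were also found in those of Anxa1, Anxa2 and Vim. The neighbouring genes S100a4 and S100a6 therefore did not share a match to these letters in these windows.

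The metformin library held 5473 barcodes with 47142356 UMIs and the control library 6174 barcodes with 49651404 UMIs. After filtering, 4569 metformin cells and 5373 control cells remained, with medians of 7926 UMIs with metformin and 7295 with control water, and the libraries shared 8 of their cell barcodes. Cells fell into 38 clusters, of which 5 stayed unnamed and were left out, and the others were grouped into 24 classes by marker genes. Of these classes 15 had 50 or more cells per library, and ranks of levels below are among these 15 unless other classes are named. The classes were rebuilt from the counts and may differ from those of the study. They are "like" the named type (B-like, CD8 T-like and so on), a word left out below, and clusters without a fitting marker list carry their leading genes as a name. Although the labels speak of infiltrating lymphocytes, 543 metformin and 812 control cells carried the microglial genes P2ry12 and Tmem119 as leading genes, so microglia were present in the sort. A level is the UMIs of a gene as a share of all UMIs of its class and library, in counts per 1000000 (CPM). All intervals are exact 95% intervals of counting error and leave out the spread between cells and animals. A gene was called higher or lower in a class when the ratio of metformin over control was at least 1.5 either way, its interval did not hold 1, and the gene had a mean of at least 50 CPM and at least 40 UMIs over both libraries.

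All 9 genes were low in microglia, and all were higher in T and NK cells past the naive state than in naive T cells. Most were also high in dendritic cells or macrophages, so a name as effector-state genes describes the lymphocytes only. With each cell thinned to 3000 UMIs, the median cell held transcripts of 7 of the 9 genes in metformin regulatory T cells and 6 in control regulatory T cells. In CD8 T cells the median was 6 of the 9 in both libraries, in NK cells 5, in B cells 2 with metformin and 1 with control water, in naive T cells 1, and in microglia 0. No transcript of any of the 9 was found in 72.5% of metformin and 72.1% of control microglia, 13.9% of metformin and 18.3% of control B cells, and 0.562% of metformin and 0.373% of control CD8 T cells.

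**Figure D1:**
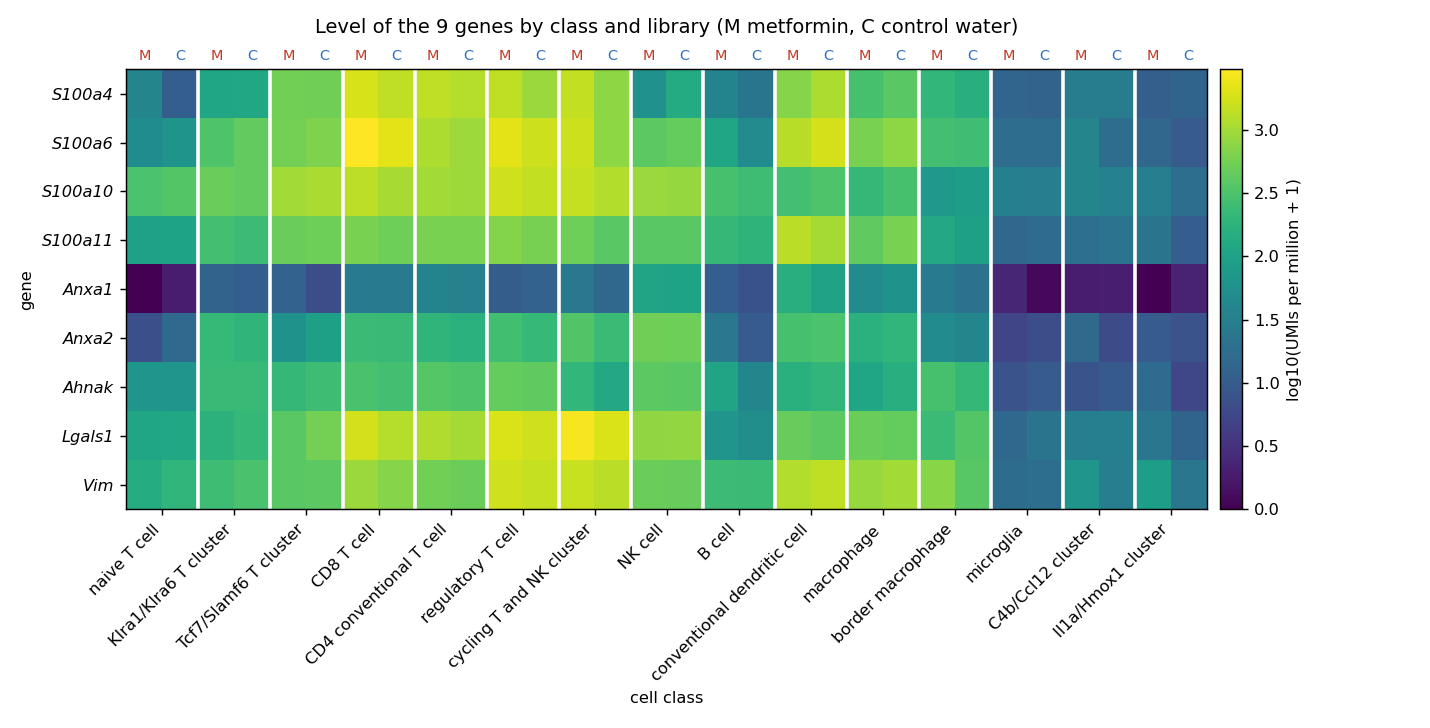
Levels of the 9 genes (rows) in the 15 classes that held 50 or more cells per library (columns, metformin left and control water right), as log10(CPM + 1). Microglia and the C4b/Ccl12 and Il1a/Hmox1 clusters are dark in nearly all rows, while CD8 T cells, regulatory T cells and the cycling cluster are bright for most S100 genes, Lgals1 and Vim.

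S100a4, which encodes a myosin-binding S100 protein also known as fibroblast-specific protein, was highest among the 15 classes in CD8 T cells at 1885 CPM with metformin and 1411 CPM with control water. CD4 conventional T cells had 1424 CPM with metformin and 1236 CPM with control water, and regulatory T cells had 1404 CPM with metformin and 916 CPM with control water. When the ranges over both libraries were compared, CD8 T cells overlapped with CD4 conventional T cells, these with regulatory T cells and those with the cycling cluster, while CD8 and regulatory T cells did not overlap. Conventional dendritic cells stood at 699 CPM with metformin and 1113 CPM with control water, ahead of the Tcf7/Slamf6 T cluster at 544 CPM with metformin and 528 CPM with control water. Macrophages had 289 CPM with metformin and 383 CPM with control water. NK cells, also cytotoxic, had only 57.3 CPM with metformin and 137 CPM with control water, and B cells 36.6 CPM with metformin and 21.3 CPM with control water. Microglia held 12.5 CPM with metformin and 12 CPM with control water.

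S100a6 (calcyclin) had its highest level among these classes in CD8 T cells too, at 3022 CPM with metformin and 2207 CPM with control water, and neither library's value overlapped with the next class. Regulatory T cells followed at 2181 CPM with metformin and 1634 CPM with control water, overlapping with conventional dendritic cells at 1273 CPM with metformin and 1829 CPM with control water. NK cells had 395 CPM with metformin and 450.0 CPM with control water. The gap between CD8 T cells and NK cells was thus wide for S100a6 and wider for S100a4, although both classes carry cytotoxic genes. The classes below 50 cells in a library included γδ T cells, with 2539 CPM in 46 metformin cells and 1860 CPM in 58 control cells. Neutrophils reached 12214 CPM in 6 metformin cells and 6796 CPM in 44 control cells. Of the classes of all sizes, neutrophils held the highest S100a6 and S100a11 levels in both libraries.

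S100a10, the annexin A2 partner, spread more evenly over lymphocytes than S100a4 and S100a6 did. It was at 1686 CPM with metformin and 1433 CPM with control water in regulatory T cells, and at 897 CPM with metformin and 838 CPM with control water in NK cells. Naive T cells already held 312 CPM with metformin and 357 CPM with control water, overlapping with conventional dendritic cells, and B cells held 295 CPM with metformin and 248 CPM with control water. S100a11, the annexin A1 partner, had its highest level among the 15 classes outside the lymphocytes, in conventional dendritic cells at 1320 CPM with metformin and 1031 CPM with control water. Regulatory T cells and CD4 conventional T cells came next and overlapped, followed by CD8 T cells at 593 CPM with metformin and 510.5 CPM with control water. S100a11 in microglia was at 13.1 CPM with metformin and 15.3 CPM with control water.

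The annexins were arranged differently from the S100 genes. Anxa1, whose product is a mediator of resolving inflammation, was at 152 CPM with metformin and 102 CPM with control water in conventional dendritic cells and at 105 CPM with metformin and 104 CPM with control water in NK cells, which overlapped. CD8 T cells held only 26.5 CPM with metformin and 27.1 CPM with control water of Anxa1, and regulatory T cells 9.53 CPM with metformin and 11.4 CPM with control water. Anxa2, which organises membrane and actin contacts, was highest among the 15 classes in NK cells at 534 CPM with metformin and 514 CPM with control water, beyond the range of the other 14. CD8 T cells held 231 CPM with metformin and 224 CPM with control water of Anxa2. Of the 15 classes NK cells thus ranked first or second for both annexins.

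Among the same classes Ahnak was highest in regulatory T cells at 449 CPM with metformin and 427 CPM with control water, followed by NK cells at 396 CPM with metformin and 389 CPM with control water. Lgals1 was highest among them in the cycling T and NK cluster at 2702 CPM with metformin and 1944 CPM with control water, then in regulatory T cells at 1933 CPM with metformin and 1669 CPM with control water. Vim was at 1688 CPM with metformin and 1486 CPM with control water in regulatory T cells, which overlapped with the cycling cluster. For Vim, conventional dendritic cells and macrophages stood above CD8 T cells by mean level. In macrophages Vim was at 872 CPM with metformin and 1002 CPM with control water, against 894 CPM with metformin and 712 CPM with control water in CD8 T cells, so these neighbours overlapped.

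The step between naive and later T cells was read within each library, with the CD8, CD4 conventional, regulatory, γδ, Tcf7/Slamf6, Klra1/Klra6, Gzmc/Ncr1, cycling and NK classes summed against naive T cells (129 metformin and 148 control cells, led by Lef1, Dapl1 and Igfbp4). All 9 genes were at least 1.5 times higher in the sum of the later classes in both libraries. Of all 2333 genes compared this way, 30.9% were called higher in both libraries. Single classes could differ less from naive T cells. S100a10 in the Klra1/Klra6 class had a ratio over naive T cells of 1.56 with metformin and 1.22 with control water. S100a4 in NK cells had a ratio of 1.53 with metformin and 13.8 with control water. The Klra1/Klra6 class scored highest on the naive T cell marker list, so its markers do not place it past the naive state. The clusters were drawn without the 9 genes and their families but on genes that move with them, so the contrast is a description.

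**Figure D2:**
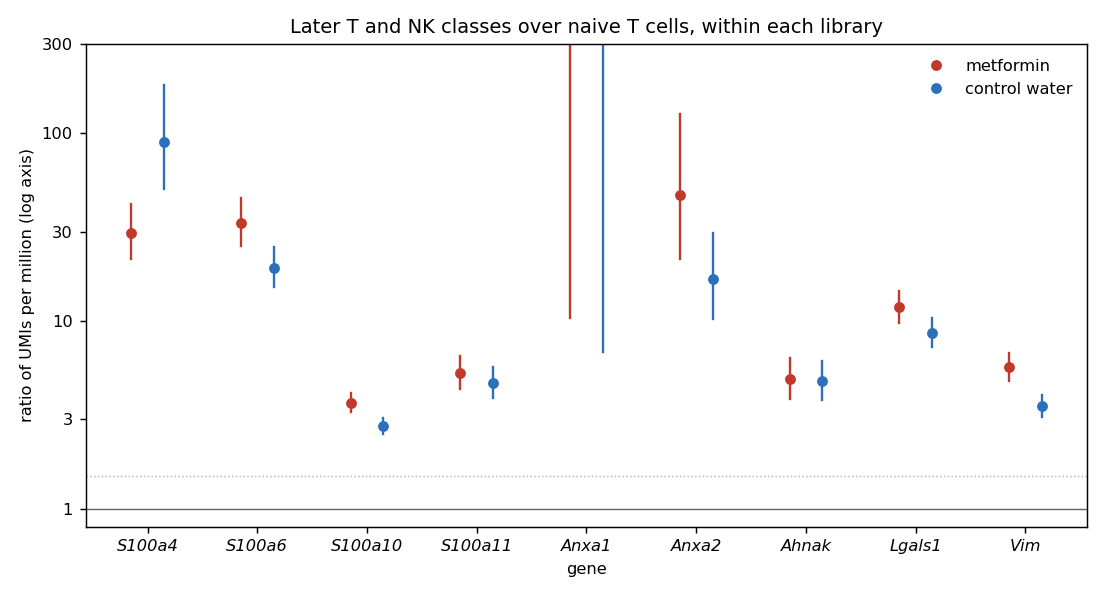
Ratio of CPM in later T and NK classes over naive T cells (log axis) for each gene, within the metformin library (red, left of each pair) and the control library (blue, right), with exact 95% counting intervals and a dotted line at 1.5. All intervals lie above 1.5, those of S100a4, S100a6 and Anxa2 above 10, and Anxa1 has only intervals because naive T cells held 0 or 1 UMI.

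S100a4 was at 1110 CPM in later and 37.5 CPM in naive T cells of the metformin library, a ratio of 29.6 (interval 21.5 to 42.0), and at 898 CPM in later and 9.92 CPM in naive T cells of the control library, a ratio of 90.5 (50.6 to 181). The naive values rest on 37 UMIs with metformin, 20 of them in 1 cell, and on 11 UMIs with control water. S100a6 was 33.4 times higher with metformin (25.1 to 45.5) and 19.2 times higher with control water (15.2 to 24.7). Anxa2 was 46.8 times higher with metformin (21.5 to 128) and 16.8 times higher with control water (10.3 to 29.4), from 6 metformin and 16 control naive UMIs. Lgals1 was 11.8 times higher with metformin and 8.66 times higher with control water. S100a10 had the smallest ratio of the 8 genes with one, 3.66 with metformin and 2.75 with control water, and S100a11, Ahnak and Vim lay between 3.51 and 5.66 over both libraries. Anxa1 had no UMI in metformin naive T cells, and with a floor of 3 UMIs over the class it was at least 12.8-fold higher in the later metformin classes. The size of these steps depends on how naive T cells are drawn. In a split by transcripts, chosen after seeing the data, T cells with both Lef1 and Ccr7 and none of Nkg7, Ccl5 and Cxcr6 (28 metformin and 66 control cells) were the naive cells, and T cells with at least 2 of the last 3 genes and neither of the first 2 (825 metformin and 870 control cells) the later ones. All 9 genes stayed at least 1.5 times higher in the later cells of both libraries, without a share of all genes to set beside this count. The ratio of S100a4 was then 22.9 with metformin and 14.2 with control water, that of S100a6 15.3 with metformin and 10.8 with control water, and that of Anxa2 7.75 with metformin and 5.59 with control water.

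Between the libraries, 95 of the 135 pairs of a gene and a class met the limits on level and UMIs, 8 were called higher with metformin and 4 lower. Over all genes and the same classes, 1.33% of 38912 pairs were called higher and 1.51% lower. The 8 higher pairs were S100a6 and Ahnak in B cells, S100a4, S100a6 and Ahnak in the cycling cluster, S100a4 in regulatory T cells, and Vim in border macrophages and in the Il1a/Hmox1 cluster. The 4 lower pairs were S100a4 in NK cells and conventional dendritic cells, Anxa2 in the Tcf7/Slamf6 cluster and Lgals1 in border macrophages. S100a10 and S100a11 were called in no class. Nor was Anxa1, which met the limits on level and UMIs only in NK cells, conventional dendritic cells and macrophages.

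**Figure D3:**
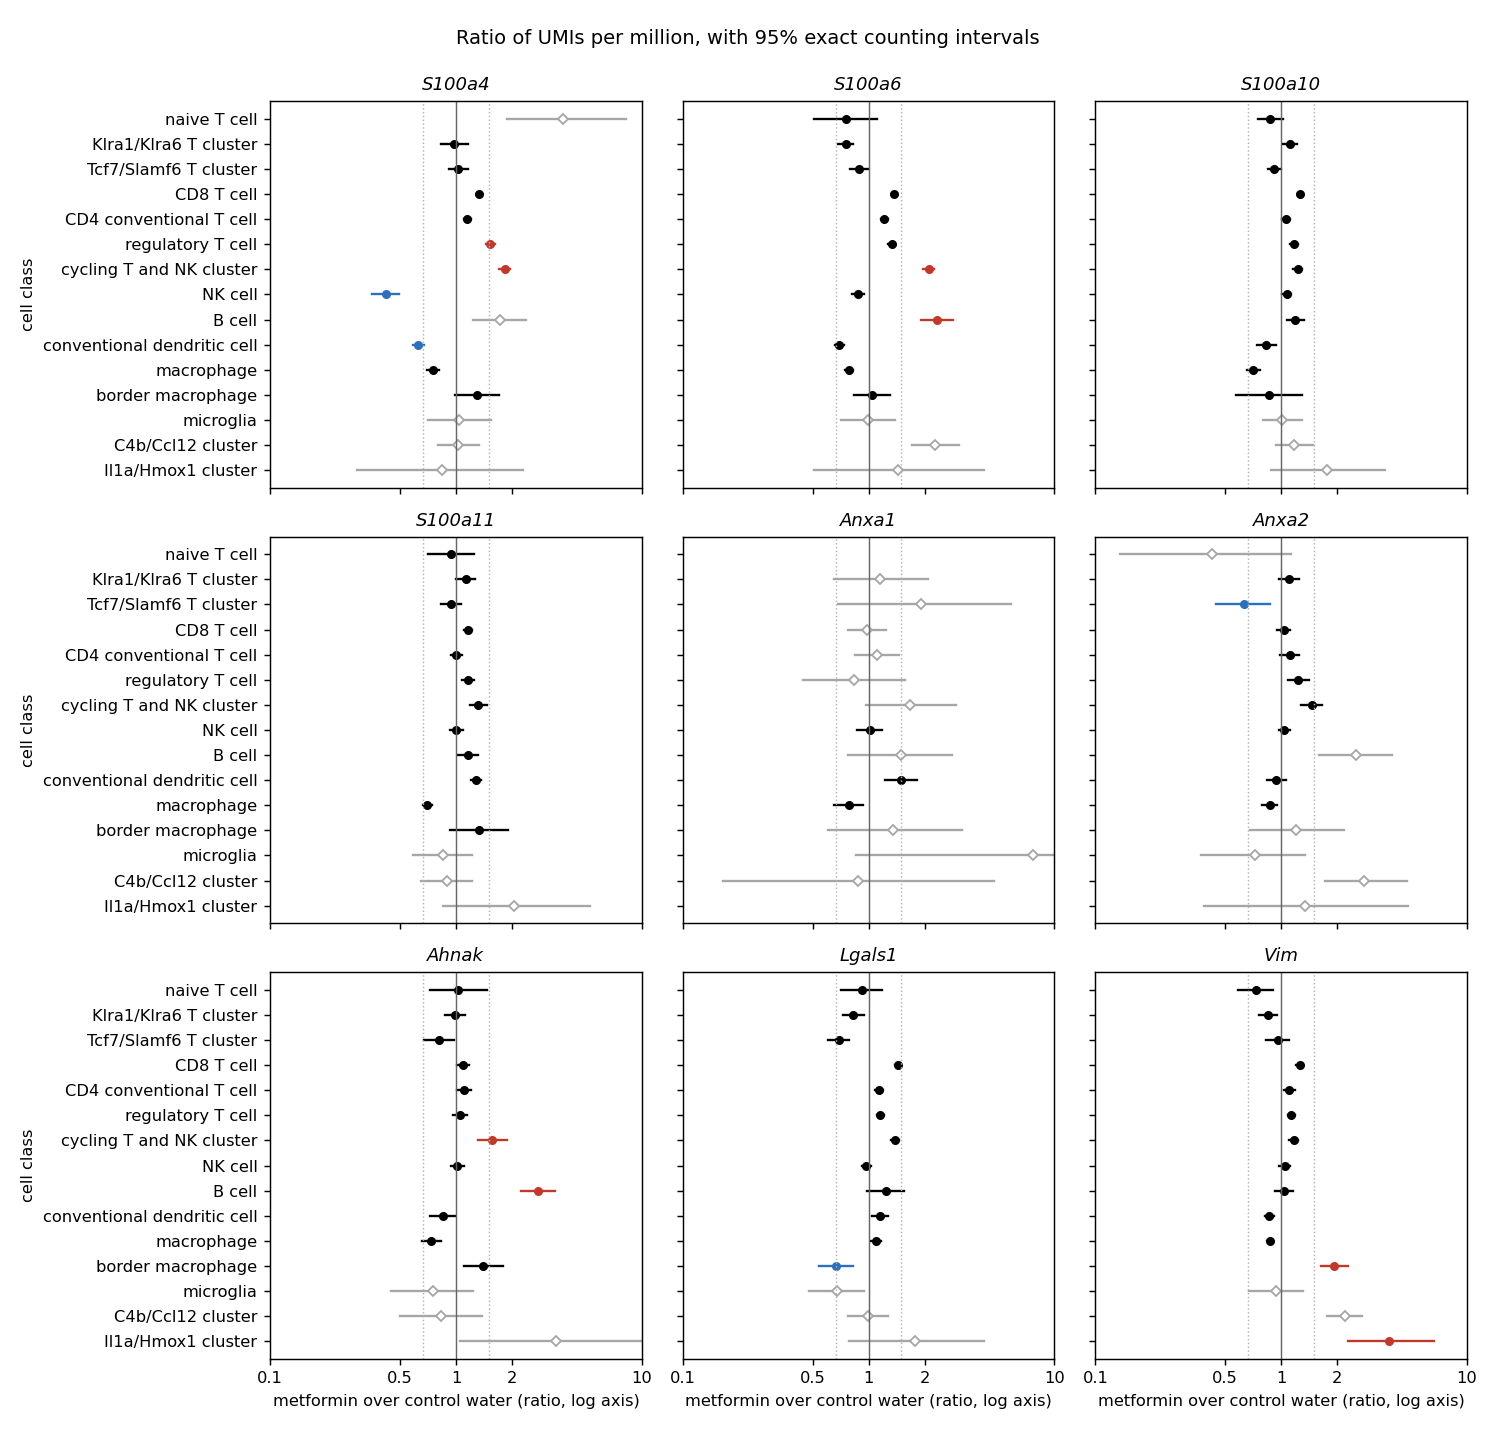
Ratio of CPM, metformin over control water (log axis), of each gene in the 15 classes, with exact 95% counting intervals. Red is called higher, blue called lower, black within the limits on level and UMIs but not called and open grey outside these limits, with dotted lines at 1.5-fold either way, and the S100a4 panel holds called points on both sides of 1, from 0.418 in NK cells to 1.83 in the cycling cluster.

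In B cells (249 metformin and 659 control cells), S100a6 and Ahnak were the 2 genes on which the choice rests. S100a6 had 190 UMIs or 110.4 CPM with metformin (95.3 to 127) and 215 UMIs or 47.1 CPM with control water (41.0 to 53.9), a ratio of 2.34 (1.92 to 2.86). Ahnak had 181 UMIs or 105 CPM with metformin (90.4 to 122) and 174 UMIs or 38.1 CPM with control water (32.7 to 44.2), a ratio of 2.76 (2.23 to 3.42). They were the 2 called of 6 genes within the limits on level and UMIs in B cells, where 0.653% of 2296 genes were called higher and 0.74% lower. The other 4 genes within the limits were closer to 1: S100a10 at 295 CPM with metformin and 248 CPM with control water (1.19, 1.07 to 1.32), S100a11 at 210 CPM with metformin and 180 CPM with control water (1.16), Lgals1 at 64.5 CPM with metformin and 52.2 CPM with control water (1.24), and Vim at 241 CPM with metformin and 232 CPM with control water (1.04). Anxa2 rested on 41 metformin and 43 control UMIs (2.53, 1.61 to 3.97), S100a4 on 63 metformin and 97 control UMIs (1.72), and Anxa1 on 17 metformin and 30 control UMIs (1.5), all 3 under the mean of 50 CPM needed for a call. The median log2 ratio was 0.28 over the 6 genes within the limits, the 2 on which the choice rests included, and 0.02 over all genes tested.

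The difference in S100a6 and Ahnak came with few cells that held many UMIs. With each cell thinned to 3000 UMIs, S100a6 was seen in 9.80% of metformin B cells (6.38 to 14.2) and 8.37% of control B cells (6.33 to 10.8), and Ahnak in 9.39% of metformin (6.04 to 13.8) and 8.69% of control B cells (6.61 to 11.2), so the shares did not differ beyond counting error. In microglia, a class expected to lack them, the thinned shares were 5.43% with metformin and 5.26% with control water for S100a6, and 1.55% with metformin and 1.80% with control water for Ahnak. Median depths before thinning were 5240 UMIs in metformin and 5632 in control B cells, and 6743 in metformin and 6528 in control microglia. Unthinned, S100a6 was in 18.1% of metformin and 13.2% of control B cells, and Ahnak in 16.5% of metformin and 14.3% of control B cells.

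Cells with at least 3 UMIs of S100a6 numbered 13 of 249 with metformin (5.22%, 2.81 to 8.76) and 15 of 659 with control water (2.28%, 1.28 to 3.73), and they held 79.5% of the metformin and 61.9% of the control S100a6 UMIs of the class. For Ahnak, 14 metformin cells (5.62%) held 82.9% and 15 control cells (2.28%) held 45.4% of the UMIs. Only 6 metformin and 4 control cells were in both groups. These cells were deeper than the class, with a median of 12276 UMIs in metformin and 9052 in control S100a6-rich cells, and all of them held UMIs of Cd79a or Cd79b, which encode the signalling chains of the B cell receptor. A transcript of the T cell marker list was found in 5 of the 13 metformin and 3 of the 15 control S100a6-rich cells, and in 8 metformin and 8 control Ahnak-rich cells. A single metformin cell held 69 of the 181 Ahnak UMIs, and without the richest cell of each library the ratio was 1.84 for Ahnak and 2.31 for S100a6.

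**Figure D4:**
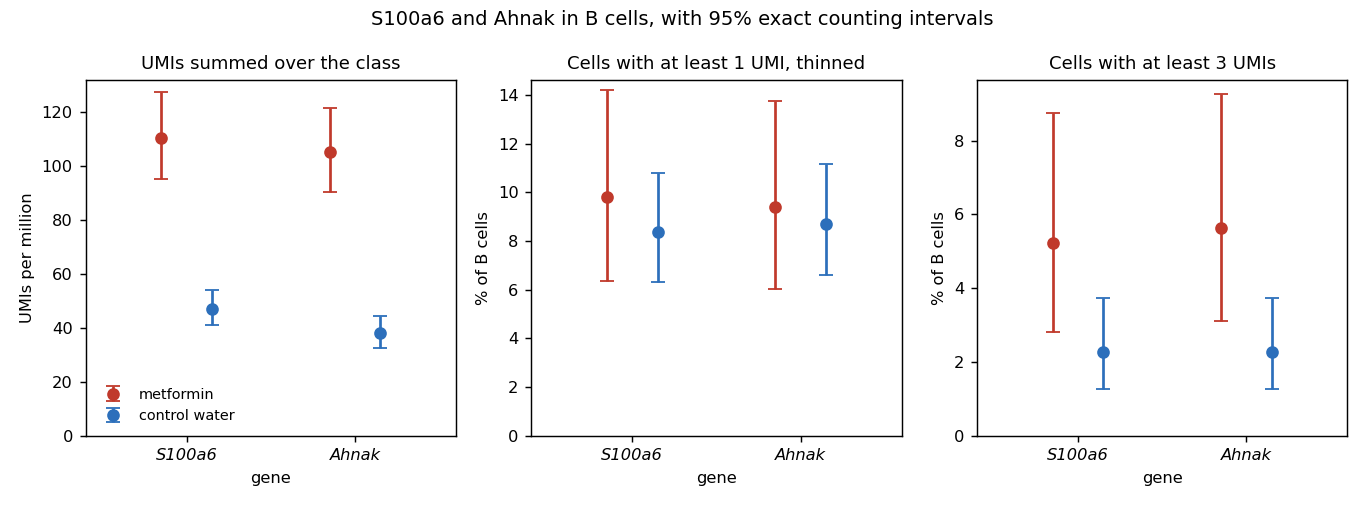
S100a6 and Ahnak in B cells of the metformin (red) and control (blue) library: summed CPM (left), share of cells with at least 1 UMI after thinning to 3000 UMIs (middle) and share with at least 3 UMIs (right), with exact 95% counting intervals. The summed levels stand apart at 110.4 CPM with metformin and 47.1 CPM with control water for S100a6, while the thinned shares of 9.80% with metformin and 8.37% with control water have overlapping intervals.

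The B cell class joined 2 clusters. In the larger (169 metformin and 525 control cells) S100a6 was at 77.9 CPM with metformin and 52.5 CPM with control water (1.48, 1.14 to 1.91), and Ahnak at 106 CPM with metformin and 36.9 CPM with control water (2.87, 2.23 to 3.68). In the smaller (80 metformin and 134 control cells) S100a6 was at 182 CPM with metformin and 25.4 CPM with control water (7.14, 4.50 to 11.8), from 98 metformin and 23 control UMIs, and Ahnak had a ratio of 2.41 (1.57 to 3.72). The smaller cluster held 7 of the 13 metformin and 1 of the 15 control S100a6-rich cells. The cell with 69 Ahnak UMIs was in the larger cluster, where it held most of the 125 metformin UMIs of Ahnak.

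Markers of other cell types also differed between the libraries in B cells, in both directions. The B cell list summed to 6113 CPM with metformin and 6622 CPM with control water. The T cell list summed to 144 CPM with metformin and 85.9 CPM with control water (all 8 genes detected in both libraries), and the effector lymphocyte list to 192 CPM with metformin and 114 CPM with control water. The plasma cell list was at 443 CPM with metformin and 970 CPM with control water, and the neutrophil list at 6.97 CPM with metformin and 21.3 CPM with control water, with S100a8, Mmp9 and Ly6g at 0 in metformin and Ly6g at 0 in control B cells. Without the B cells that held any transcript of the T cell list (30.5% of metformin and 37.5% of control B cells, left out as a step chosen after the values were seen), S100a6 stood at 106 CPM with metformin and 60.5 CPM with control water (1.76, 1.37 to 2.24) and was still called. Ahnak was then at 56.7 CPM with metformin and 35.9 CPM with control water (1.58, 1.13 to 2.19), below the level needed for a call. S100a4 was at 18.9 CPM with metformin and 23.8 CPM with control water (0.794) in the cells that were left.

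Other genes around the group were taken from lists. Of 10 follicular and resting B cell genes all were within the limits on level and UMIs and none was called in B cells. Of 27 effector and memory cytoskeleton and adhesion genes 14 were within the limits and none was called, with a median log2 ratio of 0.18. Of 14 naive and resting lymphocyte genes 8 were within the limits and none was called, with a median log2 ratio of 0.20. Of 19 memory, B-1 and activated B cell genes 3 were within the limits and 2 were called higher: Ighg2b, an immunoglobulin heavy chain of switched B cells, at 92.4 CPM with metformin and 55.0 CPM with control water (1.68), and Cd86, a costimulatory ligand, at 139 CPM with metformin and 91.8 CPM with control water (1.51). Summed over all 19 genes, that list was at 682 CPM with metformin and 708 CPM with control water. The chemokine gene Ccl5, made by effector T and NK cells, was also called higher at 95.3 CPM with metformin and 47.8 CPM with control water (1.99). Of the other S100 genes, annexins and galectins, 1 of each list was within the limits and none was called. All 13 stress genes within the limits were uncalled, with a median log2 ratio of 0.21.

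In CD8 T cells (558 metformin and 571 control cells) 8 of the 9 ratios were above 1 and none reached 1.5, where 0.454% of 2424 genes were called higher and 0.289% lower. These shares are for calls, and the share of all genes with a ratio above 1 is not given here. S100a6 was at 3022 CPM with metformin and 2207 CPM with control water (1.37, 1.34 to 1.40), and S100a4 at 1885 CPM with metformin and 1411 CPM with control water (1.34). Lgals1 was at 1752 CPM with metformin and 1222 CPM with control water (1.43), and S100a10 at 1353 CPM with metformin and 1066 CPM with control water (1.27). Anxa1 (0.977), Anxa2 (1.03) and Ahnak (1.09) were nearest to 1. The median log2 ratio was 0.34 over the 8 genes within the limits and -0.01 over all genes tested. A single metformin cell carried 159560 UMIs, 2.73% of the class, with 669 of Lgals1 and 539 of S100a6 but 1 UMI of the CD8 chains, and without the cell of most UMIs in each library Lgals1 had a ratio of 1.38 and S100a6 1.37, Anxa1 was at 0.773 (0.600 to 0.994) and Anxa2 at 0.995, and 7 of the 9 ratios were above 1. The NK list was at 3729 CPM in metformin and 5210 CPM in control CD8 T cells, and its part in these ratios was not tested. This list holds Gzma and Prf1, which were also leading genes of CD8 clusters. Ncr1 of the same list was at 1.20 CPM in metformin and 0 CPM in control CD8 T cells.

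The CD8 class joined 5 clusters, and S100a6 differed most in 1 of them. Cluster L3 (98 metformin and 133 control cells), led by Cd8a, Prf1, Cxcr6 and Pdcd1, the gene of the inhibitory receptor PD-1, had 3550 CPM of S100a6 with metformin and 1384 CPM with control water, a ratio of 2.56 (2.42 to 2.72). S100a4 had a ratio of 2.19 there (2.04 to 2.37) and S100a10 1.74 (1.61 to 1.89), while Ahnak (1.32), Lgals1 (1.34) and Vim (1.37) were closer to 1 and Anxa2 lay on the other side of 1 at 0.672 (0.563 to 0.800). The median cell of L3 had 2999 CPM of S100a6 with metformin and 1141 CPM with control water, and S100a6 was seen in 95.9% of thinned metformin cells (89.9 to 98.9) and 71.4% of control cells (63.0 to 78.9). The ratio of S100a6 was 1.04 in L2 (led by Cd8b1, Gzmk and Ifit genes), 1 in L5 (led by Nr4a2 and Gramd3), 1.07 in L18 (led by Itga1 and Cd8b1) and 1.03 in L15 (led by Gzma and Gzmb). In L15 S100a6 was itself a leading gene, at 4184 CPM with metformin and 4060 CPM with control water. The class was also made up differently. L2 held 135 metformin and 187 control cells, L5 74 metformin and 59 control cells, L18 119 metformin and 95 control cells and L15 132 metformin and 97 control cells. Both L2 and L3 had lower S100a6 than the other clusters in the control library.

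**Figure D5:**
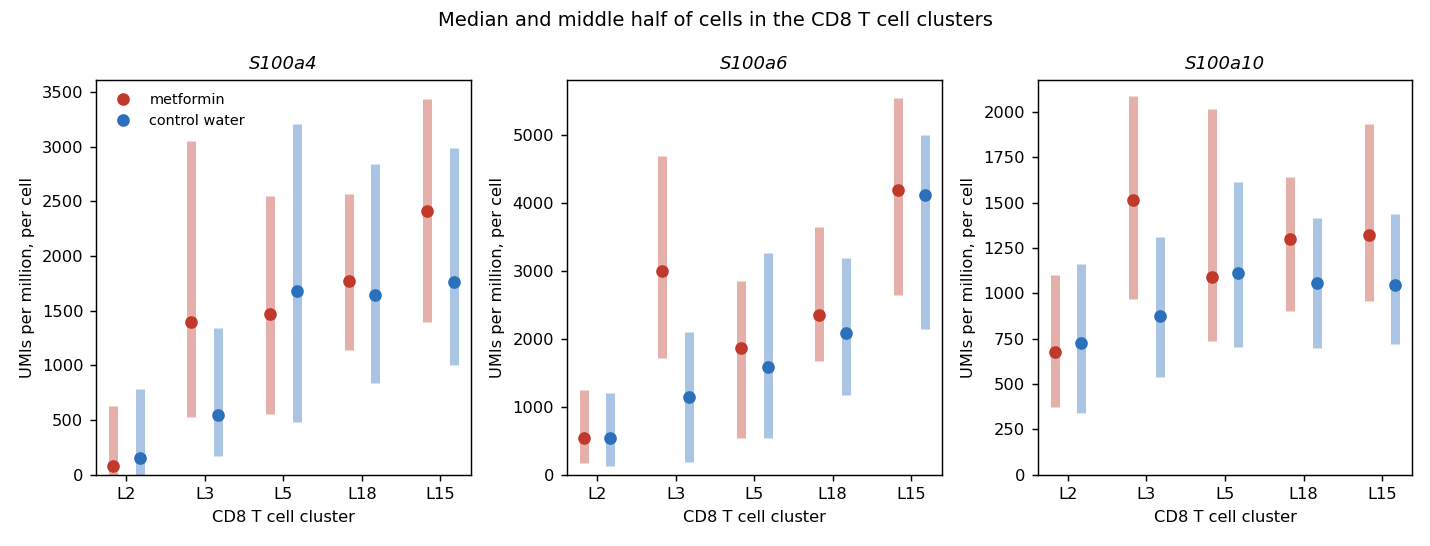
CPM per cell of S100a4, S100a6 and S100a10 in the 5 clusters of CD8 T cells, as the median (point) and the middle quartiles (bar) of metformin (red, left of each pair) and control cells (blue, right). In L3 the S100a6 medians are 2999 with metformin and 1141 with control water, and in the other clusters the bars of both libraries cover much of the same range.

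CD8 T cells from other lists gave 1 further call near the group, Lgals3, which encodes galectin-3, at 375 CPM with metformin and 238 CPM with control water (1.58, 1.47 to 1.69). None of 22 cytoskeleton and adhesion genes, 7 naive and resting genes and 13 killing genes within the limits on level and UMIs was called in either direction. Naive T cells had no call among the 9 genes or in these lists. S100a4 in naive T cells had 37 metformin and 11 control UMIs (3.79, 1.89 to 8.23), below the level needed for a call, with 20 of the 37 in 1 cell.

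In regulatory T cells (260 metformin and 289 control cells) S100a4 was called higher at 1404 CPM with metformin and 916 CPM with control water (1.53, 1.45 to 1.62), where 0.636% of 2832 genes were called higher. The call ended with a stricter cell filter (1.47) and without cells that held myeloid markers (1.44). The effector lymphocyte list moved with it, at 6921 CPM with metformin and 4466 CPM with control water, while the regulatory T cell list was at 6305 CPM with metformin and 6258 CPM with control water. In the cycling T and NK cluster (81 metformin and 65 control cells) S100a6 was at 1648 CPM with metformin and 779.8 CPM with control water (2.11, 1.97 to 2.26) and S100a4 at 1433 CPM with metformin and 785 CPM with control water (1.83, 1.70 to 1.96). Ahnak had a ratio of 1.57 there (1.31 to 1.88), at 198 CPM with metformin and 126 CPM with control water, and 3.03% of 2841 genes were called higher. This cluster mixes lineages, and marker levels differed in it. The NK list was at 2692 CPM with metformin and 1195 CPM with control water. The effector list was at 7886 CPM with metformin and 4319 CPM with control water. Both lists hold Gzma, which also led CD8 cluster L15 and was here at 2409 CPM with metformin and 999 CPM with control water. Ncr1, of the NK list alone, was at 9.98 CPM with metformin and 7.43 CPM with control water. Cd8a was at 473 CPM with metformin and 242 CPM with control water, and the naive T cell list at 143 CPM with metformin and 309 CPM with control water. The part of these shifts in the 3 ratios was not tested. The Ahnak ratio was between 1.37 and 1.49 under 4 other settings, which ended its call.

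In NK cells (551 metformin and 388 control cells) S100a4 was called lower at 57.3 CPM with metformin and 137 CPM with control water (0.418, 0.352 to 0.496), where 0.375% of 2668 genes were called lower. The other 8 genes lay between 0.877 for S100a6 and 1.07 for S100a10. The S100a4 ratio differed between the NK clusters. It was 0.15 in L6 (57.1 CPM with metformin and 393 CPM with control water) and 0.41 in L8. In L9 it was 2.07 (71.4 CPM with metformin and 34.6 CPM with control water). A single metformin cell held 26 of the 62 metformin UMIs in L9, and a single control cell 61 of the 136 control UMIs in L6. With cells thinned to 3000 UMIs, S100a4 was seen in 10.1% of metformin and 7% of control L9 cells. In L6 the shares were 10.7% with metformin and 24.5% with control water. Intervals of the shares overlapped in both clusters. Few cells carried the transcripts, since 18 metformin cells held 136 of 214 UMIs and 20 control cells held 307 of 374. Without the NK cells that held Cd3d, Cd3e or Cd3g, left out after the values were seen, the ratio was 0.414 (0.324 to 0.527). The CD8 T cell list in NK cells was at 245 CPM with metformin and 345 CPM with control water. In the Tcf7/Slamf6 T cluster (173 metformin and 207 control cells) Anxa2 was called lower at 58.3 CPM with metformin and 92.8 CPM with control water (0.628, 0.447 to 0.875), where 1.27% of 2593 genes were called lower. It rested on 56 metformin and 109 control UMIs, and with the stricter cell filter the ratio was 0.934.

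Macrophages (354 metformin and 377 control cells, led by Arg1, Tgfbi and Lyz2) had 8 of the 9 ratios below 1 with intervals below 1. None was past 1.5-fold, where 1.49% of 2618 genes were called higher and 1.53% lower. These shares are for calls, and the share of all genes with an interval below 1 at any fold is not given here. The marker score of this class, a median log2 enrichment over other cells, was 1.8 for classical monocytes and 1.0 for macrophages. No separate class of classical monocytes was named, so the class may hold both. S100a11 was at 425 CPM with metformin and 606 CPM with control water (0.702, 0.662 to 0.743), and S100a10 at 208 CPM with metformin and 293 CPM with control water (0.708). S100a6 was at 602 CPM with metformin and 769.9 CPM with control water (0.782), and Ahnak at 111 CPM with metformin and 151 CPM with control water (0.738). Lgals1 alone was above 1, at 506 CPM with metformin and 460.2 CPM with control water (1.10, 1.04 to 1.17). The median log2 ratio was -0.36 over the 9 genes and -0.005 over all genes tested. Ratios in macrophages and in CD8 T cells thus lay on opposite sides of 1 for S100a4, S100a6, S100a10, S100a11, Ahnak and Vim, a difference that was not tested. The classical monocyte list was at 4154 CPM with metformin and 5476 CPM with control water, the macrophage list at 33735 CPM with metformin and 27751 CPM with control water, and the part of this shift was not tested. From the lists, Ccl3 was called higher at 292 CPM with metformin and 164 CPM with control water (1.78), and Ccl5 lower at 2196 CPM with metformin and 3667 CPM with control water (0.599). Both encode chemokines.

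Conventional dendritic cells (149 metformin and 100 control cells) had S100a4 called lower at 699 CPM with metformin and 1113 CPM with control water (0.628, 0.586 to 0.672), where 2.7% of 2590 genes were called lower, and S100a6 at 0.696 just missed the threshold. S100a11 (1.28) and Anxa1 (1.49, 1.23 to 1.82) went the other way. The S100a4 ratio was 0.977 and that of S100a6 1.05 when each library was clustered on its own, so the call was lost. The leading genes of this class came from 2 marker lists, Cd209a and Clec10a of type 2 and Xcr1 and Clec9a of type 1 conventional dendritic cells. The class may thus hold both types, whose shares were not compared between the libraries. Markers of other cells differed in this class, with the macrophage list at 408 CPM with metformin and 997 CPM with control water. Border macrophages (72 metformin and 52 control cells) had Vim called higher at 723 CPM with metformin and 375 CPM with control water (1.93, 1.64 to 2.27) and Lgals1 called lower at 237 CPM with metformin and 356 CPM with control water (0.667, 0.539 to 0.824), where 3.78% of 2593 genes were called higher and 4.67% lower. A single metformin cell held 141 of the 494 Vim UMIs, and with cells weighted equally the ratio of Vim was 1.21, which ended the call. The Lgals1 call ended without the richest cell (0.692) and with variable genes drawn from all genes (0.790).

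Microglia (543 metformin and 812 control cells) held all 9 genes below the level needed for a call, and the highest level among them was that of S100a10, at 30.7 CPM with metformin and 30.3 CPM with control water. The S100a4, S100a6 and S100a10 ratios were 1.04, 0.995 and 1.01, while that of Lgals1 was 0.677 (0.480 to 0.943). In the Il1a/Hmox1 cluster (63 metformin and 87 control cells) Vim was called higher at 85.2 CPM with metformin and 22.4 CPM with control water (3.80, 2.27 to 6.62), where 3.07% of 2900 genes were called higher. It rested on 66 metformin and 20 control UMIs, 47 of the 66 in 5 cells, while the T cell list was at 178 CPM with metformin and 43.8 CPM with control water. In the C4b/Ccl12 cluster, below the level needed for a call, S100a6 had 177 metformin and 68 control UMIs (2.29), Anxa2 70 metformin and 22 control UMIs (2.80) and Vim 302 metformin and 121 control UMIs (2.19).

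Over the 30 points of 15 classes in 2 libraries, the genes most like each member among 5395 genes were found by Pearson correlation of log2(CPM + 10). The points share libraries, depth and clustering, so r is a description. S100a4 and S100a6 were nearest to each other (r = 0.95), Lgals1 was nearest to S100a6 (0.94), and S100a6 also had S100a11 (0.93) among its nearest. S100a10 was nearest to Anxa11, another annexin gene (0.97), then to Aes and Lrrc8c. S100a11 was nearest to Pfkp, a phosphofructokinase of glycolysis (0.97), and Vim to Crip1, which encodes a small LIM-domain protein (0.95). Anxa1 was nearest to Arpc3 (0.89), Anxa2 to Lrrfip1 (0.92) and Ahnak to Crybg1 (0.91). With a pseudocount of 1 in place of 10, the 3 nearest genes stayed the same for S100a4, S100a6 and S100a11, and 1 of 3 stayed for S100a10, Anxa1 and Lgals1.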

How the data were processed

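The deposited files hold UMI counts per gene and barcode for 2 libraries made with a 10x Genomics 3' kit, per the labels' protocols. The authors used Cell Ranger and Seurat with the build mm10, per the submitters' processing notes, and the matrix software version was 3.0.0, per the file headers. Counting settings are not given in these sources. The 9 genes and the gene lists were chosen with earlier results of these data known.

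Barcodes with fewer than 300 genes (151 metformin, 92 control) or more than 10% mitochondrial UMIs (856 metformin, 727 control) and Scrublet doublets (37 metformin, 0.803%, and 62 control, 1.14%) were left out. Cells were clustered with scanpy 1.11.5 (Python 3.11.15) on 2000 variable genes, with 30 components and 15 neighbours and without batch correction. Leiden resolutions were 1.0 for all cells and 1.5 for T, NK and innate lymphoid cells. The variable genes excluded the 9 genes, their families and the list of effector and memory cytoskeleton and adhesion genes. Killing genes such as Gzmb, Prf1 and Ccl5 were not in that list. Stress, cell cycle, mitochondrial, ribosomal and sex-linked genes were also excluded. UMIs were summed per class and library, with exact Poisson intervals for levels, conditional binomial intervals for ratios (scipy 1.17.1) and Clopper-Pearson intervals for shares. Log2 ratios add 0.5 UMI to each sum. UMIs are treated as independent molecules. No test was run and cells were not treated as replicates. The scripts were tested on simulated data.

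Of the other lists, up to 6 genes per class and direction were named in B cells, naive T cells, CD8 T cells and macrophages, ranked by the interval bound nearest to 1, and the 3 genes most like each of the 9 were ranked by correlation. Values per cluster, cells rich in a gene and the cell of most UMIs were picked after seeing their values. Alternatives were another cell filter, other variable genes, separate clustering, equal weight of cells, trimmed mean scaling, cells of mixed lineage or the richest cell left out, B cells by transcripts, and other size and count limits. T cells were also split by Lef1 and Ccr7, and another planned split of T cells by transcripts is not reported here.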

Additional observations from a re-analysis of the deposited data

Results flagged for a closer look

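S100a4 was called in opposite directions in different classes. It was higher with metformin in the cycling T and NK cluster (1.83, interval 1.70 to 1.96) and in regulatory T cells (1.53, 1.45 to 1.62). It was lower in NK cells (0.418, 0.352 to 0.496) and in conventional dendritic cells (0.628, 0.586 to 0.672). The difference between these classes was not tested, since each class has 1 library per condition. S100a6, 6837 bases away, was called higher in the cycling cluster and was at 0.877 in NK cells and 1.33 in regulatory T cells.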

How the results depend on the processing

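No ratio of the 9 genes that had been called changed sides of 1 under any alternative, but many calls ended under some alternative. These were Ahnak in B cells and the cycling cluster, and S100a4 in regulatory T cells and conventional dendritic cells. Vim and Lgals1 in border macrophages and Anxa2 in the Tcf7/Slamf6 cluster also lost their calls. In B cells drawn by transcripts, Ahnak was at 55.3 CPM with metformin and 33.0 CPM with control water (1.67), below the level needed for a call. The count of genes called higher in B cells was 2, and it was 1 with the stricter cell filter, 4 with no limit on low counts, and 1 without B cells that held a T cell marker, an alternative chosen after seeing the data. Over all classes the 8 higher calls became 4 at 2-fold and 15 with no limit on low counts, and the 4 lower calls became 1 at 2-fold. The shares of all genes under these other limits and settings are not given here, so the changed counts cannot be set beside the shares above. All 9 genes stayed higher in later than in naive T cells under 5 alternatives (stricter cell filter, other variable genes, separate clustering, equal weight of cells, trimmed mean scaling) and in a split of T cells by Lef1 and Ccr7 chosen after seeing the data. For these contrasts too the shares of all genes are not given. In B cells S100a6 ranged from 1.76 to 3.18 and Ahnak from 1.58 to 2.94 over the alternatives. Clustering each library on its own gave 116 of 135 ratios, of which 84 stayed within their interval and 32 moved, and trimmed mean scaling moved 2. The cause of these shifts was not tested. No paired analysis was possible because each condition has 1 library. Precision is limited by depth and by class size: Ahnak had 181 metformin and 174 control UMIs in B cells, and 40 of 135 pairs of a gene and a class were outside the limits on level or UMIs. The number of mice behind a library is unknown, and intervals cover counting error only.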

Other observations

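Classes with fewer than 50 cells in a library held some of the highest levels of single genes. Mature dendritic cells, led by Ccr7 and Ccl22, had 1142 CPM of Anxa2 in 70 metformin cells and 1063 CPM in 44 control cells. Plasmacytoid dendritic cells, which make type I interferon, had 1970 CPM of Lgals1 in 35 metformin cells and 1987 CPM in 21 control cells, with S100a4 at 69.8 CPM with metformin and 20.8 CPM with control water. Non-classical monocytes, patrolling cells that carry Ace and Treml4, had 1639 CPM of S100a4 in 46 metformin cells and 1531 CPM in 95 control cells. γδ T cells, which were led by Il17a and Trdc, had 569 CPM of Ahnak in 46 metformin cells and 509.6 CPM in 58 control cells. In each of these 4 classes the level of the named gene was above 500 CPM in both libraries, while microglia stood at or below 20.9 CPM for the same 4 genes.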
